A study of Homo sapiens with 2 samples.

Results

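Fibronectin and the integrin subunits that serve as its receptors, or that pair with those receptors, were followed in the human line 769-P, an established model of clear-cell renal cell carcinoma, a kidney cancer. The genes were FN1, the alpha subunits ITGA3, ITGA5, ITGA6 and ITGAV, and the beta subunits ITGB1, ITGB3, ITGB5, ITGB6 and ITGB8. They were taken as the transcript clusters, the units of an Affymetrix whole-transcript array, whose single annotated gene symbol was one of these names. 12 of 67528 transcript clusters met this rule and gave 10 of 22411 genes, with 3 clusters for ITGB1 and 1 for each other gene. The 10 genes were selected on log2 differences between these same 2 arrays that were already known, so the differences below are descriptions, and no count of them is evidence beyond those values.

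1 array held RNA of 769-P cells that had received the lentiviral vector plv-EGFP without an insert, and 1 array held RNA of cells that had received pLV-EGFP-FOXK2, which carries the full-length coding sequence of the forkhead transcription factor FOXK2. Both cultures therefore carried the vector with EGFP. Whether each was a pool or 1 clone, which promoter drove FOXK2 and how long the cells were grown afterwards are not stated in the labels. A single array per group allows neither an error nor a test, so no difference has a replicate check, and the number of arrays limits the precision.

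Fibronectin is a large secreted glycoprotein that cells assemble into fibrils of the extracellular matrix. Integrins are receptors of the cell surface made of 1 alpha and 1 beta subunit, which bind matrix proteins outside the cell and, through talin and kindlin, the actin cytoskeleton inside it. ITGA5 with ITGB1 is the main fibronectin receptor and drives fibril assembly; the ITGAV pairs bind the Arg-Gly-Asp motif of fibronectin, vitronectin or latent TGF-beta; ITGA3 and ITGA6 are chiefly laminin receptors. In the kidney these proteins anchor tubule cells to the basement membrane, and fibronectin is known as a matrix protein that is often abundant in renal carcinoma and fibrosis.

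To show the DNA before annotated starts of these genes, RefSeq windows of 250 bases upstream (GRCh38.p14) were searched on both strands. Sought were 2 forms of the forkhead motif, GTAAACA and ATAAACA, and the cyclic AMP response element TGACGTCA, a known element of the fibronectin promoter. 8 of the 10 genes had at least 1 such window, 13 in all; ITGA3 and ITGB3 are named only. The windows of FN1 and ITGB8 are printed because these genes had the largest differences in either direction, and those of ITGA6 and ITGB1 because they are the 2 windows that held a forkhead form. Capitals mark matches, and each window ends at the base before the annotated start.
FN1, chr2:215436069-215436318, minus strand: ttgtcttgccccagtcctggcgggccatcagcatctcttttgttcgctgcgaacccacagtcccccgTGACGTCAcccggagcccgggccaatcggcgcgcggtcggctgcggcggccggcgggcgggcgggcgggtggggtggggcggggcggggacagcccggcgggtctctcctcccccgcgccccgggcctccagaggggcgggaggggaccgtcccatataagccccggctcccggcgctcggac
ITGB8, chr7:20330650-20330899, plus strand: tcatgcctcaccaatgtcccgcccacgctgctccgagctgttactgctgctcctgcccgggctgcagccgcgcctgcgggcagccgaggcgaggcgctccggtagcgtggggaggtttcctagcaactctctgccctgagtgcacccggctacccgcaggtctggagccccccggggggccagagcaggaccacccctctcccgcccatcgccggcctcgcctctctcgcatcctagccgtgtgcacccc
ITGA6, chr2:172427086-172427335, plus strand: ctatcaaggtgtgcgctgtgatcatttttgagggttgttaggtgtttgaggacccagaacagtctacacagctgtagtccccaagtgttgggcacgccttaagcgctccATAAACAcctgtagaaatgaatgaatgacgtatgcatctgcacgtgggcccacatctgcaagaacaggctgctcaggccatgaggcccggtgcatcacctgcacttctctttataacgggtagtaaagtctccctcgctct
ITGB1, chr10:32935559-32935808, minus strand: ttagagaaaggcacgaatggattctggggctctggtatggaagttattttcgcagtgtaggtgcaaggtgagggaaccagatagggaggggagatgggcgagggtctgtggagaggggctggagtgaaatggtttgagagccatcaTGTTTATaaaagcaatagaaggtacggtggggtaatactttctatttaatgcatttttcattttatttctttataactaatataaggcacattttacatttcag

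In the FN1 window the response element began 183 bases before the start, and no forkhead form was present. The ITGB8 window held none of the 3 motifs. ATAAACA began 141 bases before 1 of the 2 annotated starts of ITGA6, and its reverse complement TGTTTAT began 104 bases before 1 of the 2 starts of ITGB1. The other window of each of these genes held no forkhead form. The printed ITGB1 window lies downstream of the other ITGB1 start, whose window is chr10:32958231-32958480 on the minus strand. It is therefore not the DNA ahead of the whole gene. Over all 35116 windows of this length in the table, 6.56% held a forkhead form, 2.98% for GTAAACA and 3.77% for ATAAACA, and 1.65% held TGACGTCA. A match is a description of letters and was not linked to binding; where there was none, these letters are only not in this window.

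The values are log2 expression values as the authors deposited them, and a difference is FOXK2 minus empty vector. FOXK2 itself was at 9.36 with empty vector and at 13.82 in the FOXK2 array, a difference of 4.46 in the direction of the labels. The level limit was 5.24, the median level of the transcript clusters that carry 1 gene symbol. A gene's mean of both arrays had to reach it; 11263 genes did, all 10 members among them. Whether a value lay above the array's background is not known. The kidney identity of the cells was visible in both arrays, since all 7 measured markers of the renal tumour line, such as the transcription factor PAX8 and the keratin KRT18, lay above the level limit, at 8.13 to 14.44 with empty vector and 8.05 to 16.20 with FOXK2. 2 of the 7 were over 2-fold higher with FOXK2: the endocytic receptors of the proximal tubule CUBN, by 3.43, and LRP2, by 3.05. PAX8 (-0.16), KRT18 (-0.37) and the intermediate filament VIM (-0.37) differed less. The part of this shift in the differences of the members was not tested. The 7 measured fibroblast markers, among them COL1A1, COL1A2 and PDGFRB, were all below it, at 3.64 to 4.45 with empty vector and 3.87 to 4.45 with FOXK2, near the T cell gene CD3E at 4.52 and 4.57. Of the 7 measured leukocyte and endothelial markers, 6 lay below the level limit, and CD68, a lysosomal protein, was above it at 12.83 and 13.77, a difference of 0.94.

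**Figure D1:**
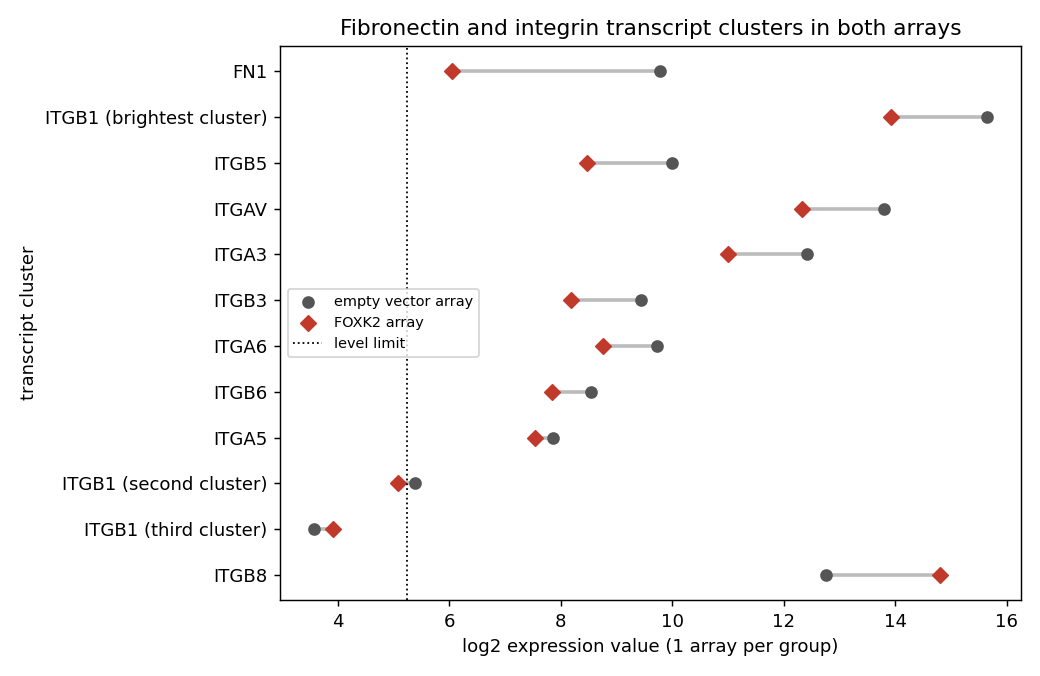
Log2 expression values (horizontal axis) of the 12 transcript clusters of fibronectin and its receptors, with a grey circle for the empty vector array, a red diamond for the FOXK2 array and a dotted line at the level limit of 5.24. FN1 has the longest line, from 9.78 to 6.04, ITGB8 is the bright cluster whose FOXK2 value lies to the right, and the 2 dim ITGB1 clusters lie near or below the limit.

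FN1 was the member that differed most. Its value was 9.78 with empty vector and 6.04 with FOXK2, a difference of -3.73, or 13.3-fold lower, and only 4 of the 11263 genes had a more negative difference. The FOXK2 value was still above the level limit, although closer to it than that of any other member gene. The genes next to FN1 in the order of differences were SHISA2 (-4.18), SLFN13 (-4.12) and DPYSL3 (-3.82) on the lower side. On the other side stood ALDH1A3 (-3.24), MT2A (-3.14) and ATRNL1 (-2.96). This likeness is that of a single difference between 2 arrays and says nothing of shared function. As the RNA came from whole cultures, fewer cells with the transcript and less of it per cell cannot be told apart, here and for every gene below.

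ITGB1, the beta subunit shared by the fibronectin and laminin receptors, was annotated to 3 transcript clusters that did not go together. The brightest was at 15.64 with empty vector and at 13.93 with FOXK2, a difference of -1.71, or 3.28-fold lower. The second was at 5.39 and 5.09, a difference of -0.30, and the third at 3.58 and 3.91, a difference of 0.34. Only the brightest lay above the level limit. The second carries no Entrez identifier in the platform's annotation, and the 20 named transcript clusters nearest to it in identifier order belong to genes that RefSeq places on the plus strand, whereas ITGB1 and all 20 such neighbours of the other 2 clusters are on the minus strand. Averaged over its 3 clusters, the rule used for all genes, ITGB1 differed by -0.56, or 1.47-fold, so ITGB1 was past the 2-fold limit with its brightest cluster and not with the mean.

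Among the alpha subunits, ITGAV, the partner of 5 beta subunits, was at 13.80 with empty vector and at 12.32 with FOXK2, which is 2.78-fold lower. ITGA3, a laminin receptor of epithelial cells, was at 12.41 and 11.01, or 2.64-fold lower. ITGA6, which joins ITGB1 or ITGB4 to bind laminin, was at 9.72 and 8.75, a difference of -0.97 that lay just outside the 2-fold limit. ITGA5, the alpha subunit of the main fibronectin receptor, had the smallest difference in size of the 10 genes. Its values of 7.86 and 7.53 differed by -0.33, and 23.9% of all genes above the level limit had a difference at or below that. All 4 alpha subunits were lower with FOXK2, 2 of them by more than 2-fold.

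Among the beta subunits that pair with ITGAV, ITGB5, a vitronectin receptor subunit, was at 10.00 with empty vector and at 8.48 with FOXK2, or 2.88-fold lower. ITGB3, a subunit of a receptor for vitronectin and fibronectin, was at 9.45 and 8.19, or 2.39-fold lower, and was the member just inside the 2-fold limit. ITGB6, an epithelial subunit whose receptor binds fibronectin and activates latent TGF-beta, was at 8.54 and 7.85, or 1.61-fold lower. All 3 were lower with FOXK2, by unequal amounts. ITGB8, which with ITGAV binds latent TGF-beta and whose tail inside the cell is unlike those of the other beta subunits, went the other way. It was at 12.77 with empty vector and at 14.80 with FOXK2, a difference of 2.03, or 4.10-fold higher, and ranked 54 from the top of the 11263 genes.

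**Figure D2:**
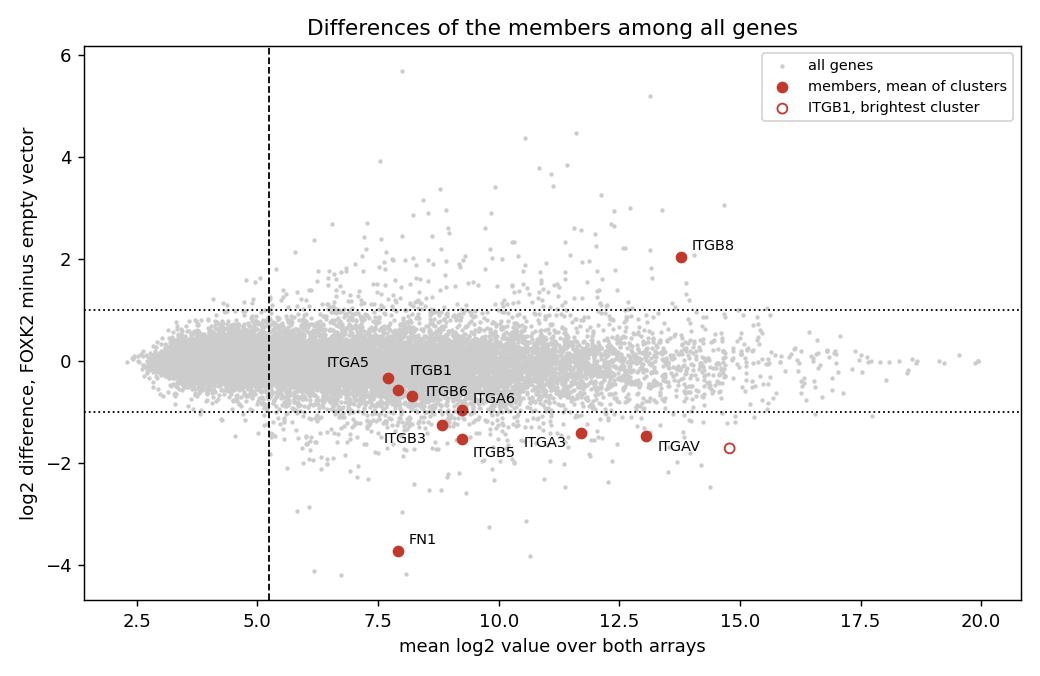
Log2 difference, FOXK2 minus empty vector (vertical axis), against the mean log2 value over both arrays (horizontal axis) for all genes in grey and the 10 members in red, with the brightest ITGB1 cluster as an open circle, dotted lines at the 2-fold limits and a dashed line at the level limit. FN1 lies at -3.73 near the lower edge of the cloud, ITGB8 at 2.03 is the single member above zero, and ITGA5 at -0.33 lies inside the cloud.

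At the 2-fold limit, 5 of the 10 members were lower with FOXK2 (FN1, ITGAV, ITGA3, ITGB5 and ITGB3), against 3.05% of all genes above the level limit, and 6 with the brightest cluster of ITGB1. 1 member, ITGB8, was higher, against 2.13% of all genes. At 1.5-fold, 7 members were lower, or 8 with the brightest cluster of ITGB1, where 10.6% of all genes were. 1 member was higher, where 6.09% were. At 3-fold, FN1 was the 1 lower member, where 0.737% of all genes were lower, and ITGB8 the 1 higher, where 0.87% were. With the brightest cluster of ITGB1, 2 members were 3-fold lower. 9 of the 10 differences were negative, with a median of -1.11, against 6258 of 11263 and a median of -0.050 over all genes above the level limit. Since the genes were chosen with these differences known, nothing is read from the gap between the members and all genes.

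Set side by side as receptor pairs, with the brightest cluster of each gene, most pairs had both subunits lower. For ITGAV with ITGB5 the differences were -1.47 and -1.52, and for ITGAV with ITGB3 -1.47 and -1.26. For the laminin receptor ITGA3 with ITGB1 they were -1.40 and -1.71. In these 3 pairs the subunits differed from each other by at most 0.31. ITGAV with ITGB1 was about as close, at -1.47 and -1.71. The subunits were further apart for ITGAV with ITGB6, at -1.47 and -0.69, and for ITGA6 with ITGB1, at -0.97 and -1.71. The main fibronectin receptor was uneven, with -0.33 for ITGA5 and -1.71 for ITGB1. ITGAV with ITGB8 was the only pair with opposite signs, -1.47 and 2.03, a gap of 3.51 on the log2 scale. A pair's subunits were measured by different probes, so these are differences set side by side and not amounts of receptor.

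**Figure D3:**
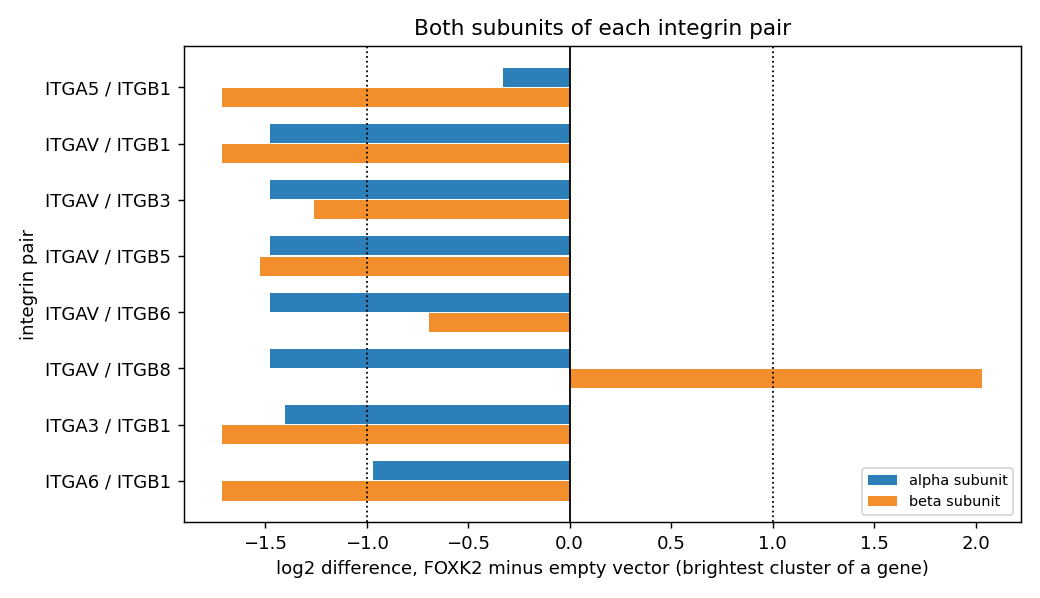
Log2 differences, FOXK2 minus empty vector (horizontal axis, bars from 0), for the alpha subunit in blue and the beta subunit in orange of 8 known integrin pairs, each from the brightest transcript cluster of its gene, with dotted lines at the 2-fold limits. In the pair of ITGAV and ITGB8 the bars point in opposite directions, -1.47 and 2.03, and in each other pair both bars lie below 0.

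The 17 other integrin subunits, which include the leukocyte integrins ITGAL, ITGAM, ITGAX and ITGB2, were mostly dim. 14 of them lay below the level limit, none reached 2-fold, and all differences lay between -0.39 and 0.38, with a median of 0.093 over the 17. The 3 above the limit were ITGA2, ITGA1 and ITGAD. ITGA2, a collagen receptor subunit, was at 7.63 and 7.24, a difference of -0.39. ITGA1, also a collagen receptor subunit, was at 6.28 and 6.66, a difference of 0.38, and ITGAD, a leukocyte subunit, was at 5.76 and 5.51, a difference of -0.25. ITGB4, the other partner of ITGA6, was at 4.28 and 4.50, below the level limit. Whether the 14 dim ones lay above background is not known, so their small differences are not set against those of the brighter members.

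Of the adaptors and kinases that link integrins to actin, 30 of 32 listed genes were measured and 20 lay above the level limit. 17 of these 20 had negative differences, with a median of -0.31, against 6258 of 11263 and -0.050 over all genes above the level limit. Only 1 was 2-fold lower and 1 was 2-fold higher, where 3.05% and 2.13% of all genes were. Over the 30 measured genes the median was -0.19, against 0.020 over all 22411 genes. VCL, vinculin, which binds talin and actin, was at 13.66 with empty vector and at 12.36 with FOXK2, or 2.47-fold lower. TNS1, tensin 1, which binds the tails of beta subunits, was at 8.22 and 10.12, or 3.71-fold higher. TLN2, a talin, differed by -0.87 and ACTN1, the actin crosslinker alpha-actinin 1, by -0.73, both short of 2-fold. The remaining central components had smaller differences: TLN1, the main talin, stood at -0.62, the focal adhesion kinase PTK2 at -0.44, paxillin PXN at -0.32, kindlin FERMT2 at -0.29 and the integrin-linked kinase ILK at 0.069.

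Of 21 other matrix ligands of these integrins, including activators and forms of TGF-beta, 16 were measured and 6 lay above the level limit. THBS1, thrombospondin 1, a matrix glycoprotein that binds integrins, was at 14.59 with empty vector and at 12.42 with FOXK2, or 4.50-fold lower, and no other gene of this list reached 2-fold. CCN1, a matricellular ligand of ITGAV receptors, differed by -0.43 and LAMC1, a laminin chain, by 0.31. SPP1, osteopontin, another ITGAV ligand, was at 19.47 and 19.60, close to the highest value on the arrays, 19.93. TGFB1, the cytokine that the ITGAV pairs with ITGB6 and ITGB8 release, held the same value of 7.33 in both arrays. Other genes were exactly tied too, such as DOK1 at 4.56 and COL1A1 at 4.45, so the tie is not read as a steady level. The ligand list as a whole had a median difference of 0.012, against 0.020 over all genes. 9 of its 16 measured genes had positive and 6 negative differences, where 11804 and 10075 of all 22411 genes had. Over the 6 ligands above the level limit the median was 0.008, against -0.050 over all genes above it.

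Of 20 genes for fibronectin assembly and for co-receptors, 19 were measured and 14 lay above the level limit. 9 of the 14 had negative and 5 positive differences, where 6258 of all 11263 genes above the limit had negative ones. CD44, the hyaluronan receptor, which also binds fibronectin, was 4.37-fold lower as the mean of 2 clusters. 1 cluster was at 9.10 with empty vector and 6.76 with FOXK2, the other at 5.65 and 3.73, so both were lower. The dimmer cluster had a mean below the level limit of 5.24, and the averaged FOXK2 value of 5.25 lay at that limit. The syndecans are heparan sulphate proteoglycans that bind fibronectin beside integrins: SDC2 differed by -0.72, SDC3 by -0.56, SDC1 by 0.21 and SDC4 by 0.094. The FOXK2 value of SDC2, 5.23, lay just below the level limit. ROCK1, a kinase of the contractile pathway that stretches fibronectin, differed by -0.49, close to the median of -0.42 over its 51 neighbouring genes. The median over the 19 genes was -0.11, against 0.020 over all genes. Over the 14 above the level limit it was -0.13, against -0.050 over all genes above it.

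**Figure D4:**
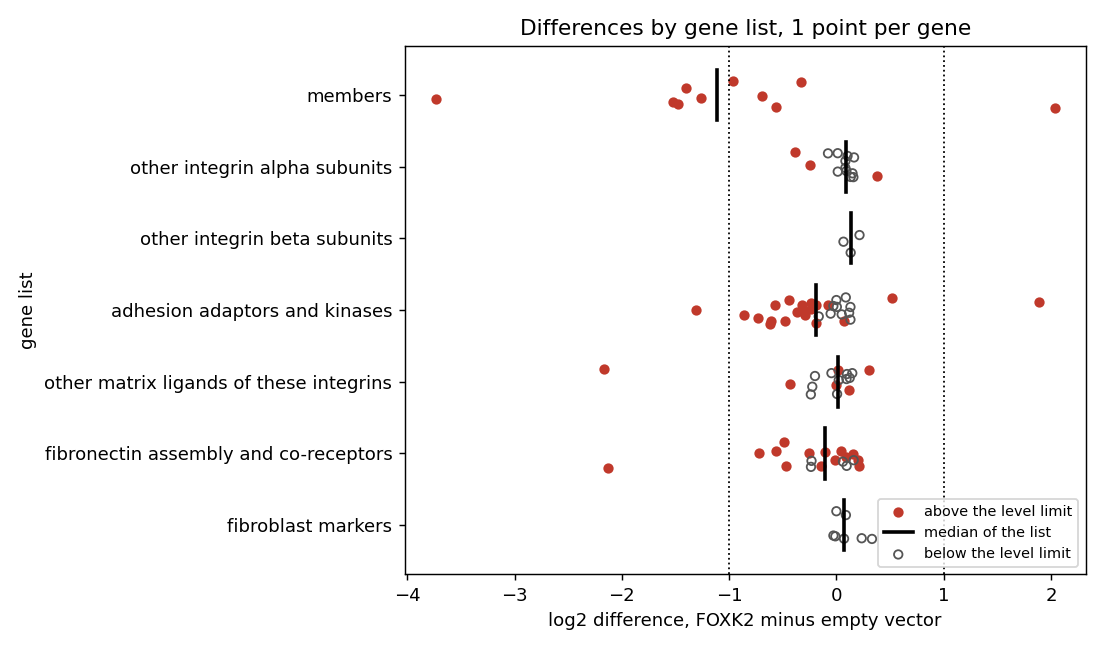
Log2 differences, FOXK2 minus empty vector (horizontal axis), with 1 point per gene, filled red above and open grey below the level limit, a black bar at each list's median and dotted lines at the 2-fold limits. The points beyond 2-fold in the 5 pathway lists are THBS1, CD44, VCL and TNS1, and the fibroblast markers are all open points near 0; the kidney, leukocyte and endothelial markers are not drawn.

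FN1, ITGA6, ITGAV and ITGB6 lie on chromosome 2, ITGA3 and ITGB3 on chromosome 17, and the others on 4 different chromosomes. In parts of the genome neighbouring genes differed together between the arrays, so the running median of 51 neighbouring genes above the level limit was taken around each member. It lay between -0.081 and 0.080 for the 8 members outside chromosomes 3 and 10. It was -0.23 around ITGB5 and -0.24 around ITGB1. After subtraction FN1 stood at -3.65, ITGB5 at -1.29 and ITGB8 at 2.03. The brightest ITGB1 cluster stood at -1.47, a combination added after the data had been seen. The same 5 lower members and 1 higher member were past 2-fold after subtraction. Among the pathway genes, VCL (neighbours -0.26) stood at -1.04 and THBS1 (neighbours -0.29) at -1.88 after it. Several smaller differences shrank by over 1.5 times, for example ITGA2 from -0.39 to -0.22. ROCK1 (neighbours -0.42) went from -0.49 to -0.067, TLN2 from -0.87 to -0.41, TLN1 from -0.62 to -0.33 and PTK2 from -0.44 to -0.17.

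**Figure D5:**
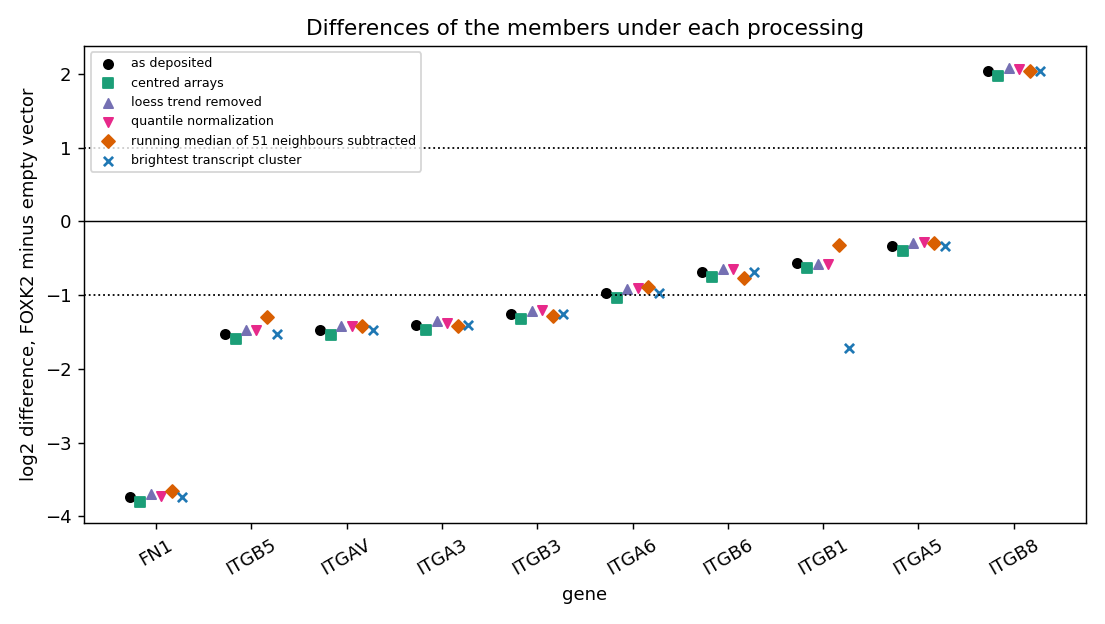
Log2 difference, FOXK2 minus empty vector (vertical axis), of each member (horizontal axis, ordered by the value as deposited) under 6 ways of processing the same 2 arrays, with dotted lines at the 2-fold limits. The symbols of most genes lie close together. ITGB1 is furthest spread, at -0.56 with its clusters averaged and -1.71 with its brightest cluster. ITGB5 runs from -1.59 with centred arrays to -1.29 with the running median subtracted. ITGA6 lies at the limit, between -0.90 and -1.04.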

How the data were processed

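Total RNA of 2 cultures, 1 per group, was hybridised to Affymetrix whole-transcript arrays after biotin labelling, per the labels' protocols. The authors used Affymetrix Expression Console, per the submitters' processing notes; the labels name neither algorithm nor build. The deposited table is in log2, a scale read from their range (2.13 to 19.93), and array medians were 4.48 with empty vector and 4.55 with FOXK2.

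Transcript clusters with 1 symbol (23781) were kept and named through the platform annotation and the RefSeq table of GRCh38.p14. Clusters of a gene were averaged. Differences were taken with no further normalization and no test, with limits of 2-fold and a mean level of 5.24. The members and lists were chosen with earlier results of these data known. Named genes were the members, FOXK2, other integrin subunits above the level limit, up to 4 genes of each list there with the largest differences, and the 3 genes on each side of FN1; any other gene was picked with its values in view. Alternatives covered centring, a loess trend (span 0.3), quantile normalization, subtraction of a running median, the brightest cluster, and other limits. Python 3.11.15 was used with pandas 2.3.3, statsmodels 0.14.6 and numpy 2.4.6, and the steps were tested on simulated data.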

Additional observations from a re-analysis of the deposited data

How the results depend on the processing

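With 1 array per group, no replicate could be left out. No paired analysis was possible because each group holds 1 array and the result comes from no test. FN1 stayed between -3.80 and -3.65 under centring, loess, quantile normalization, the running median and the brightest cluster, and all 10 members kept their sign under these 5. The count of members at least 2-fold lower was 5, or 6 after centring, which took ITGA6 to -1.04, and 6 with the brightest cluster, which took ITGB1 from -0.56 to -1.71. It was 7 at a 1.5-fold limit and 1 at 3-fold with clusters averaged, by construction, and 8 and 2 with the brightest cluster. The median of the other alpha subunits was 0.089 over 14 genes and -0.25 over the 3 above the level limit. The median of the adaptors and kinases was -0.19 over 30 genes and -0.31 over the 20 above the level limit. After subtraction of the running median, that over the 30 genes was -0.097. Subtraction of the running median moved ITGB1 to -0.32 and ITGB5 to -1.29. Between clusters of 1 gene that lay above the level limit, differences disagreed by a median of 0.19 over 97 genes. That is a spread between probes on the same arrays. It holds no spread between cultures and is not an error of a difference.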

Other observations

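The 3 genes on either side of FN1 and ITGB8 in the RefSeq order were looked up after the data had been seen. Those of FN1 went in both directions, and those of ITGB8 were all higher with FOXK2 except POLR1F. Of all 11263 genes above the level limit, 4880 were higher with FOXK2. A change of a whole region was not tested. Going along chromosome 2, among genes above the level limit, the 3 before FN1 were BARD1 (-0.21), ABCA12 (-1.74) and ATIC (-0.93), and the 3 after it were MREG (0.21), PECR (1.48) and TMEM169 (0.93), each as the log2 difference with FOXK2 minus empty vector. ABCA12, a lipid transporter, was thus over 2-fold lower and PECR, a peroxisomal reductase, over 2-fold higher. Next to ITGB8 on chromosome 7 stood MACC1, a regulator of MET expression, at 8.23 with empty vector and 11.63 with FOXK2, a difference of 3.40. The next genes on that side were POLR1F (-0.17) and FERD3L (0.32). FERD3L was dim, at 5.21 with empty vector and 5.53 with FOXK2, near the level limit. On the other side stood RPL23P8 (0.17), SP4 (0.59) and MIR1183 (0.45).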
